A study of Rattus norvegicus with 22 samples.

Results

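The mitochondrial solute carrier family, Slc25a, was followed through rat male germ cells on 22 one-colour Agilent arrays. Members were the genes whose array probe carries a transcript accession that the RefSeq gene table of assembly GRCr8 gives a rat symbol beginning with Slc25a, with 1 probe per gene, the one with the highest mean over all arrays. This gave 38 genes of 15154 named on the array, from 48 probes, so 10 members had 2 probes and 28 had 1. The table lists 53 protein-coding genes of the family, and 15 of them had no such probe and were not analysed here. One of these is Slc25a31, the testis ADP/ATP carrier, so it could not be set against the general ADP/ATP carriers, and Slc25a4 and Slc25a5 were compared with each other instead.

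Most carriers of this family sit in the inner mitochondrial membrane. They exchange nucleotides, phosphate, carboxylic acids, amino acids, cofactors and iron between the matrix and the cytosol, and most have a single substrate or a small set of them. The ADP/ATP carriers pass newly made ATP out of mitochondria in return for ADP. In the testis, pachytene spermatocytes are in meiotic prophase, when most X-linked genes are silenced in the sex body, and round spermatids are the haploid cells that follow meiosis.

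Male rats were dosed by gavage with saline or with cyclophosphamide, a chemotherapy agent that alkylates DNA, at 6 mg/kg, over 4 weeks of 6 dosing days each. Germ cells were separated by unit gravity sedimentation, which enriches cells by size and leaves some of other kinds in each fraction. Pachytene spermatocytes came from 5 saline and 5 cyclophosphamide rats and round spermatids from 6 of each. No other genotype or agent is given in the labels, nor the strain or the age. The labels number the rats and name no pools, and 2 cyclophosphamide pachytene arrays carry the number 16 with different years and were taken as different rats.

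Array brightness, taken as the 75th percentile of processed signals, ranged from 1069.7 to 2424.9 intensity units. Between 65.3% and 76.4% of an array's probes stood well above background, and 0 spots were saturated. Each level below is a log2 signal scaled to that percentile, so a level of 0 is the array's own 75th percentile. The 8 pachytene markers summed to 51.5 to 73.3 times the percentile in pachytene arrays and to 4.48 to 7.95 in round spermatid arrays. The 8 round spermatid markers summed to 373 to 657 in round spermatid arrays and to 102 to 279 in pachytene arrays, so both fractions held their labelled cell type with signal of the other. Sertoli markers (8 of 9 on the array) summed to 18 to 31.1 in pachytene arrays and 1.96 to 5.98 in round spermatid arrays. A sum weighs bright markers most. By the limma test used below, 5 of 8 Sertoli markers were lower (36.9% of all features) and 1 higher (38.4%) in saline round spermatids. Leydig markers (6 of 6, with Lhcgr never above background) summed to 5.18 to 11.4 in pachytene and 1.72 to 4.2 in round spermatid arrays. Macrophage markers ran the other way, at 0.495 to 1.26 in pachytene arrays, where Ptprc was never above background, and 3.79 to 11.51 in round spermatid arrays. Peritubular myoid markers did so too, at 1.44 to 2.79, where Cnn1 was never above background, and 3.82 to 7.76. Red blood cell markers (4 of 6 on the array) overlapped, at 2.99 to 5.27 and 2.97 to 10.73. The part of these cells in the differences between cell types below was not tested.

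Promoters of 3 members are shown: the 2 measured ADP/ATP carriers, which fell together from spermatocyte to spermatid, and Slc25a25, an ATP-Mg/phosphate carrier that rose. The plan named the ADP/ATP carriers only. Slc25a25 was added to it, and is 1 of the 2 members that hold the motif TGACGTCA described below. Each is the 250 bases before a RefSeq transcript start in GRCr8, read along the gene's strand. The Slc25a25 window lies inside the annotated gene, which spans 36106448 to 36139812, so it precedes an internal start. A single start per member was counted, and other starts of a member were not. Capitals mark TCCCGC, the core that E2F proteins bind, TGACG, the short core of the cAMP response element, and TGACGTCA, the whole element, which contains TGACG on both strands. The window searched, on both strands, also took the 50 bases after the start.
Slc25a4, chr16:52805271-52805520, plus strand: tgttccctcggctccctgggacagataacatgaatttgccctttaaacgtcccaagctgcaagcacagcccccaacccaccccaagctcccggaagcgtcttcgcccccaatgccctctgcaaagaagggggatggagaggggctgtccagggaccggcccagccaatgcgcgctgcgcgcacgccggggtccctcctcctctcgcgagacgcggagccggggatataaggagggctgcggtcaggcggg
Slc25a5, chrX:120897366-120897615, plus strand: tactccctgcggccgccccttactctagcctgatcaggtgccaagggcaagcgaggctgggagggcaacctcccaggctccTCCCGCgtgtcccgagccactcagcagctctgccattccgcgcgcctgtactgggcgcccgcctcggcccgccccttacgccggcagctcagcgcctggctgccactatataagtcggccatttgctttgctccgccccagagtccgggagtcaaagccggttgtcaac
Slc25a25, chr3:36116582-36116831, minus strand: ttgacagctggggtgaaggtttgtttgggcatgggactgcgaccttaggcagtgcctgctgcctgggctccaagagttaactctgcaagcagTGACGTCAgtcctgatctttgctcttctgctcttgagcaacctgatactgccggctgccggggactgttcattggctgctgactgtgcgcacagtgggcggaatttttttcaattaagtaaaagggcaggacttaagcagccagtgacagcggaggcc
The Slc25a4 window held none of the 3 motifs, the Slc25a5 window held TCCCGC and the Slc25a25 window held TGACGTCA. Of 38 members, 33 had a promoter in the table. TCCCGC was in 8 of these 33 (24.2%) and in 18.7% of all 33469 promoters. TGACG was in 8 members as well, against 21.2% of all promoters. TGACGTCA was in 2 members, Slc25a25 and Slc25a33, and in 1.83% of all promoters. Slc25a33, a pyrimidine nucleotide carrier, also rose between the cell types in saline rats. Both members with the whole element were thus among the 7 with a promoter that rose in saline rats, and 0 were among the 17 that fell. In cyclophosphamide rats Slc25a33 gave -0.046 and did not pass, while its other probe gave 0.87, so its part in this count is not settled. These matches are descriptions of letters in a window, over few genes.

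Of the 38 members, 34 could be tested between cell types. Slc25a15, an ornithine carrier, Slc25a27, an uncoupling-protein-like carrier of brain, and Slc25a34 were well above background on 0 of 22 arrays, and Slc25a22, a glutamate carrier, on 1 saline round spermatid array. From pachytene spermatocytes to round spermatids of saline rats, 28 of the 34 differed at a Benjamini-Hochberg adjusted p under 0.05 in limma (82.4%), where 75.4% of all 19822 genes and unnamed probes tested did. Of these, 10 members rose (38.4% of all tested features rose) and 18 fell (36.9% fell), Slc25a44 among the latter by the brighter of its disagreeing probes. With the median probe of each gene the split was 11 higher and 17 lower of 32 tested. Slc25a53 and Slc25a21, also among those that fell, entered the test through pachytene arrays alone. Slc25a53 was below background on all round spermatid arrays, and Slc25a21 was well above it on 3 of 6 saline ones. Both genes count among the 2-fold and non-overlapping members below as well. With only probes well above background on all 22 arrays, 9 of 30 members rose and 16 fell, against 6088 and 6291 of 16424 features. Differences of at least 2-fold were found for 18 of 34 members, against 46.2% of all tested. The median member difference was -0.48 on the log2 scale, and that of all tested features was 0.015. In 24 of 34 members the arrays of the 2 cell types did not overlap, against 57.2% of all tested. The share of members that passed was near the background. In these sorted fractions fewer cells of a type and less RNA per cell cannot be told apart.

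**Figure D1:**
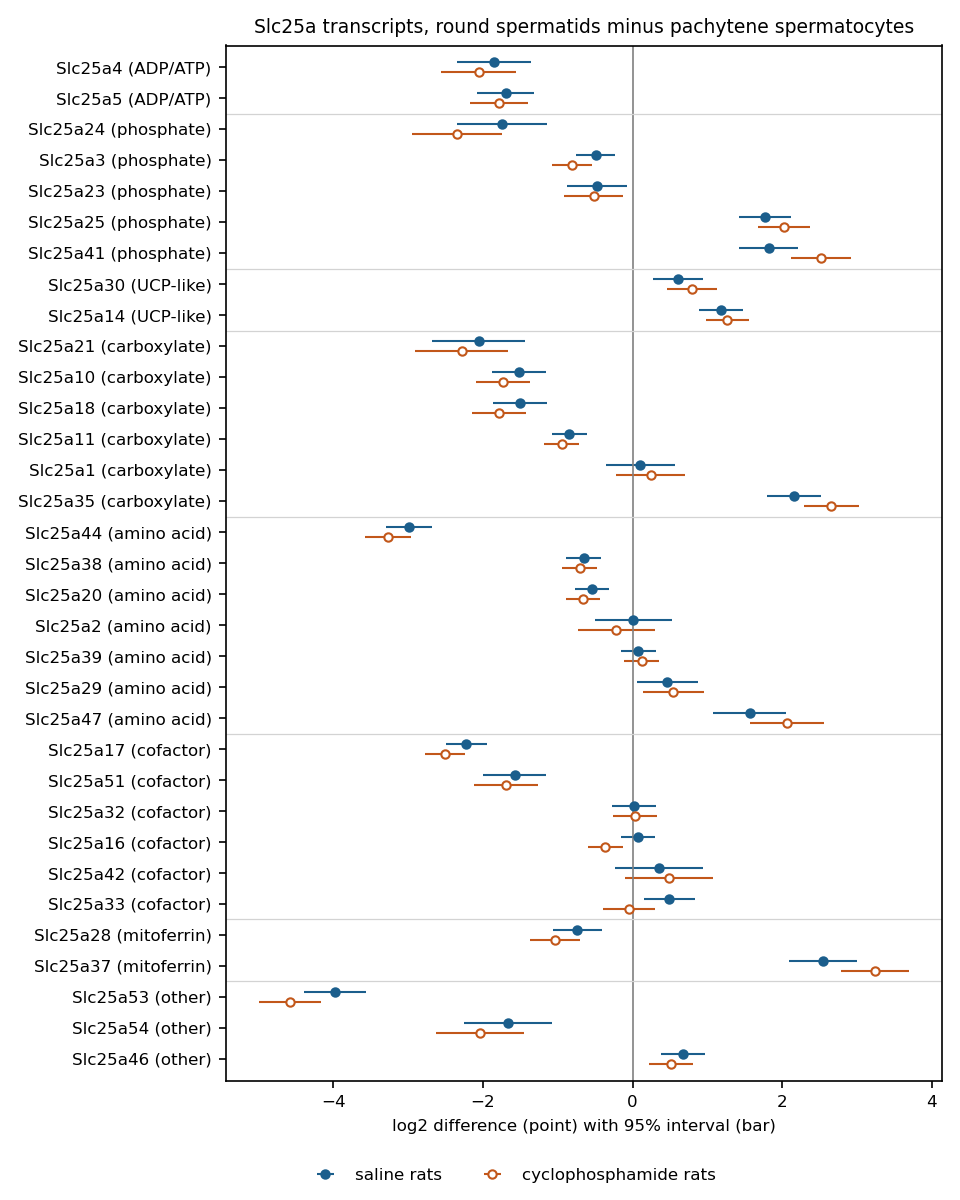
Differences between round spermatids and pachytene spermatocytes for 33 of the 34 tested members, grouped by substrate. The x axis is the log2 difference, points are limma estimates, bars are 95% intervals, filled points are saline rats and open points cyclophosphamide rats. Slc25a53 and Slc25a44 lie farthest left and Slc25a37 farthest right in both treatments, and for Slc25a44 a dimmer probe lies on the other side. All round spermatid signals of Slc25a53 are below background, so its points are not measured sizes and only a bound can be read. The same holds for Slc25a21 in cyclophosphamide rats.

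Both measured ADP/ATP carriers were lower in round spermatids of saline rats, where 36.9% of all features were. Slc25a4, the carrier of heart and muscle mitochondria, had levels of 0.12, -0.28, 0.37, -0.34 and -0.13 on the saline pachytene arrays. On the saline round spermatid arrays its lowest, median and highest levels were -2.41, -1.92 and -1.47. Every round spermatid array was below every pachytene array, and the fall was 3.61-fold (95% interval 2.55 to 5.11, log2 difference -1.85 ± 0.24 SE, adjusted p = 3.65e-07 in limma). Slc25a5, the X-linked carrier of dividing cells, had levels of 0.98, 0.52, 0.94, 0.60 and 0.68 on the same pachytene arrays and of -1.37, -0.95 and -0.49 (lowest, median, highest) on the round spermatid arrays. Its groups did not overlap either, and the fall was 3.24-fold (2.48 to 4.23, log2 -1.70 ± 0.19 SE, adjusted p = 2.48e-08). The second Slc25a5 probe, also above background on all 22 arrays, gave a log2 difference of -1.94. The annotation holds 9 pseudogenes named for Slc25a5, and whether they share its probes was not tested.

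Within an array the Slc25a4 level minus the Slc25a5 level was -0.80 ± 0.14 (SD, n = 5) in saline pachytene spermatocytes and -0.95 ± 0.18 (SD, n = 6) in saline round spermatids. These are differences between separate probes, so only their change between groups can be read, and it was -0.15 (two-sided exact permutation p = 0.160, adjusted 0.320 over 4 comparisons). In cyclophosphamide rats the change was -0.27 (exact p = 0.0823, adjusted 0.320). Without the round spermatid array of cyclophosphamide rat 27 it was -0.37 (exact p = 0.0159, unadjusted). With the other Slc25a5 probe the sign turned, to 0.087 and 0.11 in the 2 treatments. An unequal fall of the 2 carriers was not detectable with these arrays. The smallest p these group sizes allow is 0.00433.

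**Figure D2:**
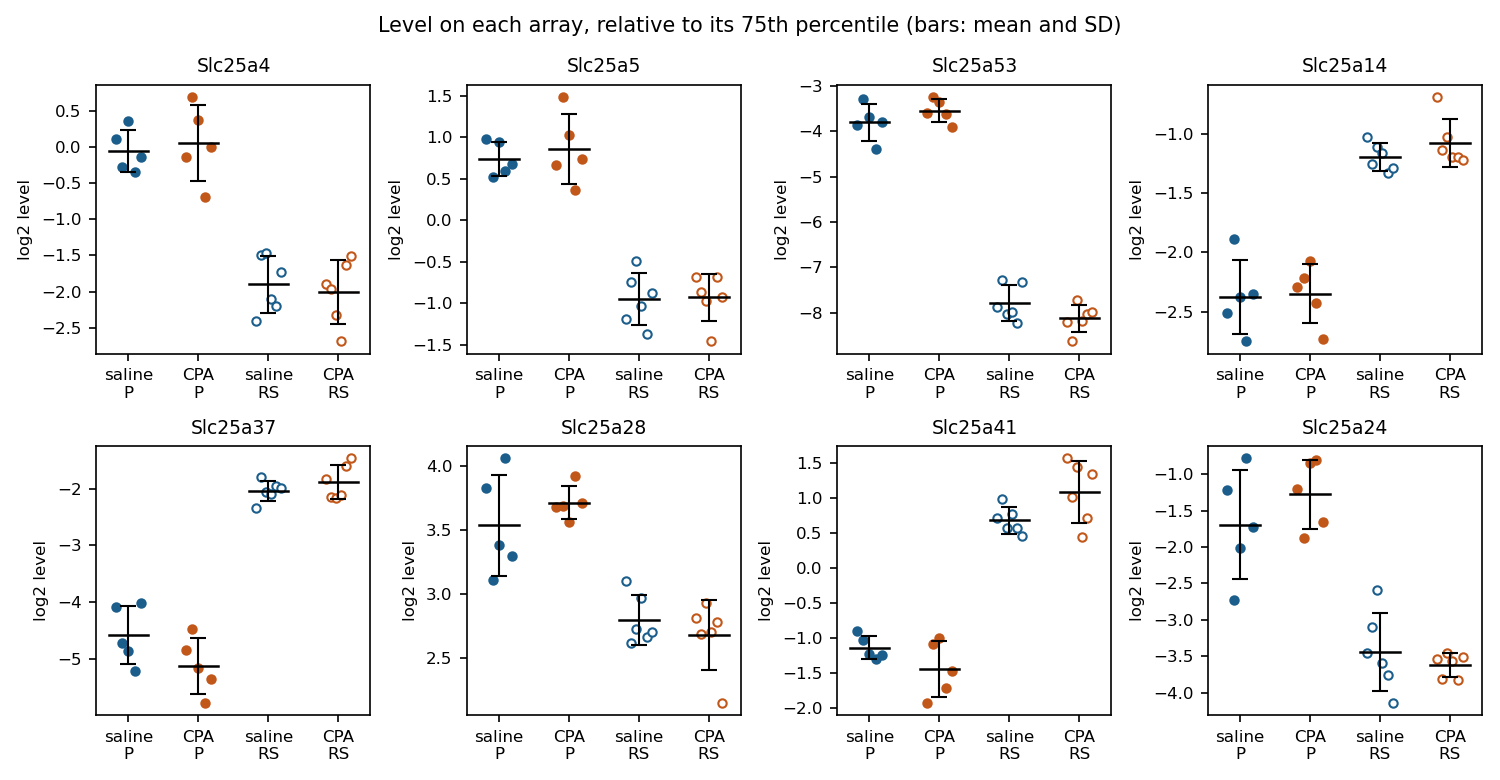
Level of 8 members on each of the 22 arrays, on a log2 y axis scaled so that 0 is the array's 75th percentile. Points are rats, bars are the mean and SD, P is pachytene spermatocytes, RS round spermatids and CPA cyclophosphamide. Slc25a4, Slc25a5, Slc25a53, Slc25a28 and Slc25a24 are lower and Slc25a14, Slc25a37 and Slc25a41 higher in round spermatids, while saline and cyclophosphamide arrays of a cell type overlap, and all round spermatid points of Slc25a53 are below background.

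The 5 phosphate carriers all passed, 3 lower (36.9% of all features) and 2 higher (38.4%). Slc25a3, which brings in phosphate for ATP synthesis, fell 1.41-fold (log2 -0.49 ± 0.13 SE, adjusted p = 0.00136). Among the calcium-dependent ATP-Mg/phosphate carriers, Slc25a24 fell 3.36-fold (-1.75 ± 0.29) and Slc25a23 1.39-fold (-0.47 ± 0.19, adjusted p = 0.0288), while Slc25a25 rose 3.40-fold (1.77 ± 0.17). The Slc25a23 call was lost without any 1 of 5 saline arrays, the pachytene arrays of rats 13 and 25 and the round spermatid arrays of rats 15, 25 and 28. Slc25a41, a related ATP-Mg/phosphate carrier that lacks the calcium-binding part, rose 3.53-fold (1.82 ± 0.19).

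Slc25a25 lay at 0.19, 1.01, 0.36, -0.35 and 0.18 in saline pachytene spermatocytes, and its 6 saline round spermatid arrays were tightly grouped at 1.95 to 2.23 (median 1.97). Slc25a41 lay at -0.90, -1.02, -1.22, -1.29 and -1.24, and then at 0.46 to 0.99 with a median of 0.65. Neither gene's groups overlapped. In the annotation Slc25a41 is the neighbour of Slc25a23, and the neighbours moved in opposite directions.

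Slc25a24 overlaps Slc25a54, a carrier with no substrate assigned here, in the annotation, so their probes may share signal, which was not tested. Slc25a24 lay at -1.22, -2.73, -2.02, -0.78 and -1.72 on the saline pachytene arrays of rats 13, 16, 25, 26 and 28. Slc25a54 lay at -0.03, -1.90, -0.99, 0.36 and -0.55 on the same arrays. The order of the 5 rats was the same for both genes, with rat 26 highest and rat 16 lowest. Slc25a54 fell 3.16-fold to round spermatids (-1.66 ± 0.28).

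Both tested uncoupling-protein-like carriers rose (38.4% of all features did), Slc25a14 by 1.18 ± 0.14 (2.27-fold) and Slc25a30 by 0.61 ± 0.16 (1.53-fold). Ucp2, an uncoupling protein whose symbol keeps it outside the rule, fell by 1.23.

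Of 6 tested carriers of carboxylic acids and glutamate, 4 fell (36.9% of all features) and 1 rose (38.4%). Slc25a10, the dicarboxylate carrier, fell 2.86-fold (-1.52 ± 0.17) and Slc25a18, a glutamate carrier, fell with it (-1.504 ± 0.17). Slc25a11, the oxoglutarate carrier, whose exchange with malate is part of the malate-aspartate shuttle, fell 1.80-fold (-0.84 ± 0.11). Slc25a21, the oxodicarboxylate carrier, gave -2.06 ± 0.30 and passed, with the 3 saline round spermatid arrays of slide 1 above background and the 3 of slide 2 not. Within slide 1 it gave -1.24 and did not pass (adjusted p = 0.129 in limma), and within slide 2 it gave -2.72 (adjusted p = 0.00257). Slc25a1, the citrate carrier, did not pass (0.10 ± 0.22, adjusted p = 0.680). Slc25a35 rose, with levels of -1.10, -0.48, -1.24, -1.52 and -1.13 in pachytene spermatocytes and of 0.85 to 1.27 (median 1.07) in round spermatids. The arrays did not overlap and the rise was 4.45-fold (2.15 ± 0.17).

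Among carriers of amino acids and carnitine, 3 of 7 tested fell (36.9% of all features), 2 rose (38.4%) and 2 did not pass, with Slc25a44 counted as a fall by its brighter probe and turned by the other. Slc25a20, the carnitine-acylcarnitine carrier that admits fatty acids for oxidation, fell 1.46-fold (-0.54 ± 0.11), and Slc25a38, the glycine carrier of haem synthesis, 1.57-fold (-0.65 ± 0.11). Slc25a47 rose 2.96-fold (1.56 ± 0.24). Slc25a29, its neighbour in the annotation and a carrier of basic amino acids, rose 1.38-fold (0.46 ± 0.20, adjusted p = 0.0378). That call was lost with quantile normalization (0.36), normexp (0.16) or slide as a block (0.23), and without the pachytene array of rat 16, 25 or 26 or the round spermatid array of rat 16, 28 or 29. Slc25a39, a glutathione carrier, stayed within its spread (0.076 ± 0.11), and 8 pseudogenes carry its name. Slc25a2, an ornithine carrier, gave 0.012 ± 0.25.

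Slc25a44, a branched-chain amino acid carrier, fell 7.94-fold by its brighter probe and rose by its dimmer one (adjusted p = 1.81e-13 and 5.35e-10 in limma). The brighter probe read -0.99, -0.90, -0.65, -0.85 and -0.79 in saline pachytene spermatocytes and -4.11 to -3.37 (median -3.95) in round spermatids, a log2 difference of -2.99 ± 0.15 (SE). The dimmer probe read -4.76, -4.89, -4.63, -5.32 and -4.69, then -3.27 to -2.35, a difference of 2.04. Both were well above background on all 22 arrays, and in cyclophosphamide rats they gave -3.27 and 2.83. The direction of Slc25a44 as a gene is therefore not settled by this array. Of the 10 members with 2 probes, 5 had probes of equal sign in both treatments. Of the 6 with both probes above background everywhere, 3 did, among them Slc25a5 and Slc25a28.

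**Figure D3:**
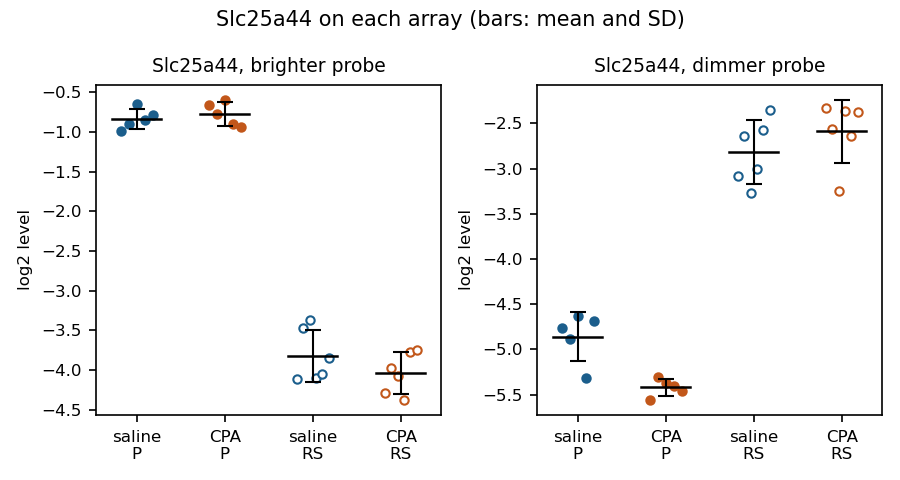
The 2 probes of Slc25a44 on each of the 22 arrays, on a log2 y axis scaled so that 0 is the array's 75th percentile. Points are rats and bars the mean and SD, with P for pachytene spermatocytes, RS for round spermatids and CPA for cyclophosphamide. The brighter probe falls from about -0.84 to -3.83 between the saline means, and the dimmer probe rises between the same arrays by 2.04.

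Of 7 tested cofactor and nucleotide carriers 3 fell (36.9% of all features), 1 rose (38.4%) and 3 did not pass. Slc25a17, a peroxisomal carrier of CoA, FAD and NAD, fell 4.66-fold (-2.22 ± 0.13), from 0.50, 0.30, 0.76, 0.54 and 0.47 to -2.21 to -1.49. Slc25a51, the mitochondrial NAD carrier, fell 2.98-fold (-1.57 ± 0.20). Slc25a33 rose 1.41-fold (0.49 ± 0.17). Slc25a32, linked to folate and FAD, Slc25a42, a CoA carrier, and Slc25a16 gave 0.017, 0.36 and 0.074 and did not pass. The second Slc25a16 probe, above background on 10 of 22 arrays, gave -1.47.

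The 2 mitoferrins, which bring iron into mitochondria for haem and iron-sulphur clusters, went in opposite directions. Slc25a37, mitoferrin 1, had levels of -4.08, -4.73, -4.86, -5.21 and -4.02 in saline pachytene spermatocytes and -2.34, -2.02 and -1.80 (lowest, median, highest) in round spermatids. It rose 5.83-fold (4.24 to 8.03, log2 2.54 ± 0.22 SE, adjusted p = 6.24e-10). Slc25a28, mitoferrin 2, fell from 3.83, 3.11, 3.38, 4.06 and 3.30 to between 2.62 and 3.105 (median 2.72), which is 1.67-fold (-0.74 ± 0.16, adjusted p = 2.35e-04). Its pachytene rat 16, at 3.109, was just above the highest round spermatid array, at 3.105, so the groups did not overlap. The second Slc25a28 probe fell too, by 0.60.

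The X chromosome carries 3 members, of which 1 rose (38.4% of all features) and 2 fell (36.9%). Of the 31 tested autosomal members 9 rose and 16 fell, and 3 genes are too few to set apart from these. Slc25a14 had levels of -2.51, -1.89, -2.38, -2.75 and -2.35 in saline pachytene spermatocytes and -1.33, -1.21 and -1.03 (lowest, median, highest) in round spermatids, with no overlap. Slc25a5 fell as given above. Slc25a53 had levels of -3.87, -3.28, -3.68, -4.40 and -3.80 in pachytene spermatocytes and was well above background on 0 of 12 round spermatid arrays of either treatment. The fall is a bound, at least 5.26-fold in saline and at least 6.21-fold in cyclophosphamide rats, set by the lowest signal well above background on each array. The measured means were -3.81 and -7.78 in saline rats.

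The remaining passing member, Slc25a46, which sits in the outer membrane and acts in mitochondrial shape, rose 1.60-fold (0.68 ± 0.14).

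The step was measured a second time in cyclophosphamide rats, with no array in common. There 28 of 34 members passed (79.3% of all features did), 9 higher (39%) and 19 lower (40.3%) or, with the median probe, 11 and 17 of 32, with a median of -0.59 against -0.016 for all, and 19 differed at least 2-fold (51.6% of all). In both treatments 27 members passed, all 27 with the same sign. The same held for 14143 of 19506 features, all 14143 with the same sign. Slc25a33 missed the threshold in cyclophosphamide rats (-0.046), as Slc25a16 did in saline rats, while Slc25a16 gave -0.36 after the drug. The other Slc25a33 probe, well above background on all 22 arrays, passed in both treatments, at 0.99 and 0.87. The other Slc25a16 probe passed too, at -1.47 and -2.13. It was well above background on only 10 of 22 arrays, so these are not measured sizes. The difference between treatments passed for neither gene (adjusted p = 0.633 in limma). The absolute difference was larger in cyclophosphamide rats for 32 of 34 members, and for 15015 of 19506 features tested in both. The markers of the fractions moved alongside: the median difference of the 8 round spermatid markers was 2.42 in saline and 2.95 in cyclophosphamide rats, and that of the 8 pachytene markers -2.87 and -3.09. The part of cell mixture in the larger member differences was not tested. Slc25a37 rose 9.45-fold in cyclophosphamide rats, Slc25a35 6.31-fold, Slc25a41 5.74-fold and Slc25a25 4.06-fold. Slc25a4 fell 4.16-fold, Slc25a5 3.45-fold and Slc25a17 5.68-fold. Slc25a21 was above background on 0 of 6 cyclophosphamide round spermatid arrays, which bounds its fall at least 4.32-fold. Slc25a21 and Slc25a53, both among the 19 lower members, entered this test through pachytene arrays alone. With only probes well above background on all 22 arrays, 8 of 30 members rose and 17 fell, against 6047 and 6930 of 16424 features. Arrays did not overlap for 25 of 34 members, against 67% of all tested.

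Slides 1 and 2 each held both cell types, with 1 pachytene array of each treatment, so a lone array stood for its group there. Within them Slc25a4 gave -2.12 and -2.18 in saline rats, Slc25a5 -1.88 and -1.95, and Slc25a37 1.92 and 2.95. The lone array was assumed to vary like the other groups. Of 34 members, 19 passed in saline rats within slide 1, where 11148 of 20413 features did, and 25 within slide 2, where 12051 of 20650 did. In cyclophosphamide rats slides 1 and 2 gave -2.65 and -2.06 for Slc25a4, -2.27 and -1.82 for Slc25a5, and 2.61 and 3.45 for Slc25a37.

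Drug comparisons gave no member at an adjusted p under 0.05. In pachytene spermatocytes 0 of 34 members and 0 of 18853 features passed in limma, and at an unadjusted p under 0.05 there were 3 members and 7.29% of all features. Slc25a16 gave 0.27 ± 0.12 (SE, unadjusted p = 0.0271), Slc25a33 gave 0.34 ± 0.17 and Slc25a38 0.23 ± 0.12. On the other side Slc25a37 gave -0.54 ± 0.23 (unadjusted p = 0.0280), Slc25a35 -0.40 ± 0.18 and Slc25a41 -0.30 ± 0.20. The adjusted p of these 6 was 0.680 to 0.764. The round spermatid markers moved alongside: 8 of 8 had estimates below 0 in this comparison (median -0.43, 0 passing), and their summed level was 108 to 279 in saline and 102 to 213 in cyclophosphamide pachytene arrays. Slc25a37, Slc25a35 and Slc25a41 are members that rose in round spermatids, and the part of spermatid signal in their estimates was not tested.

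Slc25a37 shows the overlap behind these estimates. It read -4.84, -4.48, -5.17, -5.78 and -5.36 in cyclophosphamide pachytene spermatocytes, and the saline values given above run from -5.21 to -4.02. Slc25a4 read -0.13, 0.70, 0.38, -0.69 and 0.01 after the drug, a difference of 0.11 with a 95% interval of -0.42 to 0.63. Slc25a5 read 0.67, 1.49, 1.03, 0.36 and 0.74, a difference of 0.11 (-0.29 to 0.51). On both genes rat 15 was the highest and the later of the arrays numbered 16 the lowest of the cyclophosphamide arrays. The X-linked members Slc25a14 and Slc25a53 gave 0.027 ± 0.15 and 0.26 ± 0.21. All 34 groups overlapped, where 0.621% of all features did not.

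In round spermatids 0 of 32 members and 0 of 19241 features passed, with 1 member and 3.33% of features at an unadjusted p under 0.05. That member was Slc25a41, at 0.41 ± 0.18 (unadjusted p = 0.0360). Its levels were 0.45, 1.18 and 1.57 (lowest, median, highest) after the drug and 0.46 to 0.99 after saline, so the groups overlap. Slc25a38 gave 0.18 ± 0.11 and Slc25a30 0.20 ± 0.15. On the other side Slc25a16 gave -0.16 ± 0.11, Slc25a44 -0.22 ± 0.14 and Slc25a33 -0.20 ± 0.16. Slc25a4 gave -0.10 (-0.58 to 0.38), Slc25a5 0.022 (-0.34 to 0.39) and Slc25a14 0.12 ± 0.13. The groups of all 32 members overlapped, where 0.192% of all features did not.

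The 95% intervals bound what the arrays could have missed. They lay within a 2-fold change either way for 31 of 34 members in pachytene spermatocytes and for 32 of 32 in round spermatids. The widest interval reached 0.65 to each side of its estimate in the first and 0.57 in the second. The number of arrays limits this precision.

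**Figure D4:**
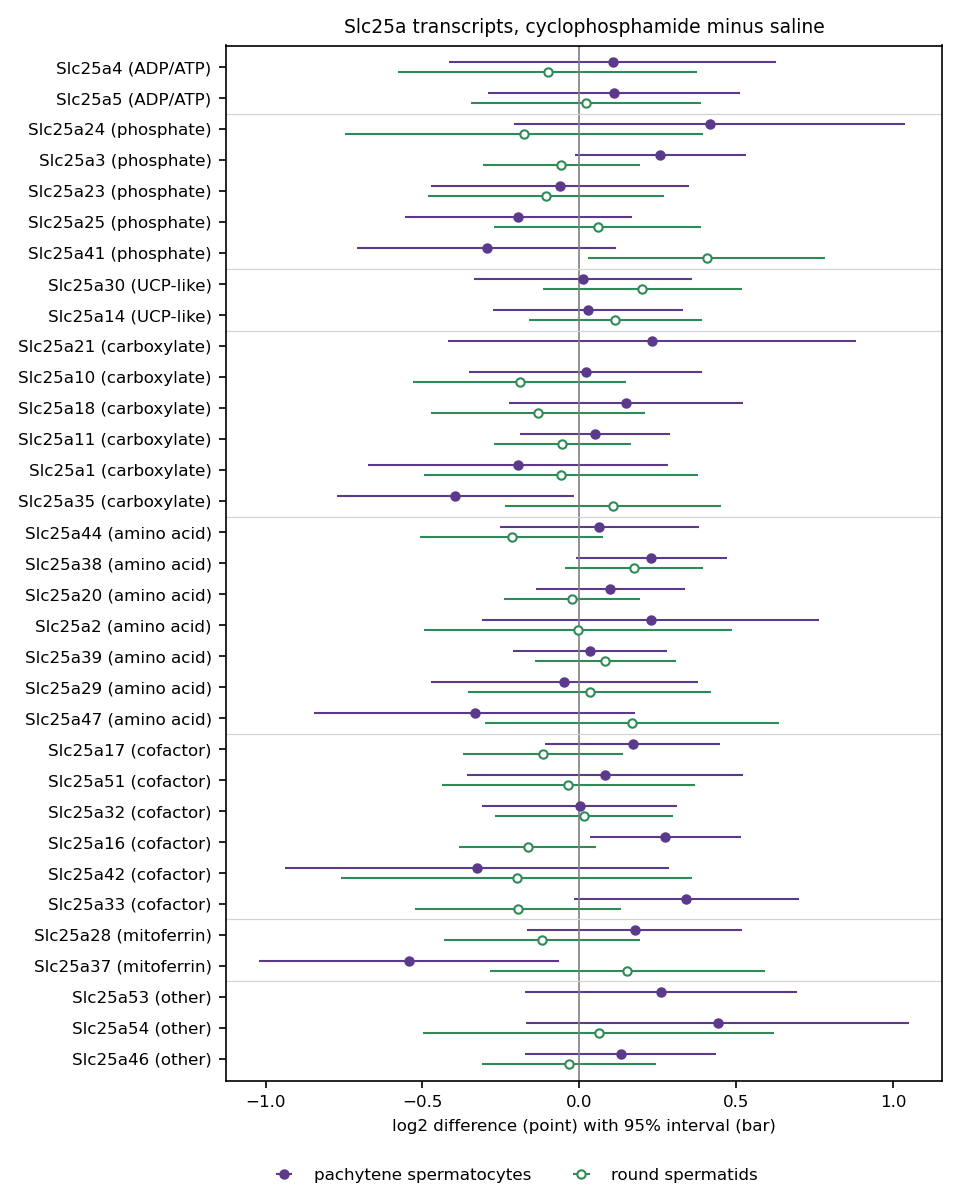
Cyclophosphamide minus saline for tested members, grouped by substrate. The x axis is the log2 difference, points are limma estimates and bars 95% intervals, filled for pachytene spermatocytes (33 of 34 members) and open for round spermatids (31 of 32 members). Most bars cross 0, no member passes after adjustment, and the estimates run from -0.54 for Slc25a37 to 0.44 for Slc25a54, both in pachytene spermatocytes.

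The drug effect in round spermatids minus that in pachytene spermatocytes was tested for 34 members. None passed in limma, 1 of 20067 features did (0.00498%), and 5 members had an unadjusted p under 0.05, against 7.66% of all features. Slc25a53 is 1 of the 5, but its round spermatid signals were below background, so it has no measured difference here. Slc25a41 gave 0.70 ± 0.27 (unadjusted p = 0.0167), Slc25a37 0.70 ± 0.31 and Slc25a35 0.50 ± 0.25. In the other direction Slc25a16 gave -0.44 ± 0.16 (unadjusted p = 0.0107) and Slc25a33 -0.54 ± 0.23. The adjusted p of all 5 named with values was 0.633, and Slc25a35 had an unadjusted p of 0.0541. Slc25a4, Slc25a5 and Slc25a14 gave -0.21 ± 0.34, -0.089 ± 0.26 and 0.088 ± 0.20.

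The Slc25a4 level minus the Slc25a5 level differed by -0.0055 between treatments in pachytene spermatocytes (exact permutation p = 0.937) and by -0.12 in round spermatids (exact p = 0.390, adjusted 0.519). The smallest p possible was 0.00794 and 0.00216. Neither difference was detectable.

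Genes that work with the carriers were counted in the same fits. Of 18 genes of the machinery that imports carrier proteins, 12 were tested between cell types in saline rats, and 1 rose (Tomm20l, log2 difference 0.38) and 8 fell, where 38.4% of all features rose and 36.9% fell. Timm13 (-1.17), a small chaperone of the intermembrane space, and Timm29 (-1.09), a subunit of the TIM22 insertion complex, fell most. The median of the 12 was -0.48. Of 14 tested ATP synthase genes 12 fell (36.9% of all features) and 1 rose (38.4%), with Atp5mc1 at -2.43, Atp5f1c at -2.05 and Atp5f1d at -1.51.

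Other mitochondrial transporters fell in 12 (36.9% of all features) and rose in 4 (38.4%) of 17 cases. Mcu, the pore of the calcium uniporter, rose by 2.79. Abcb8 fell by 2.65, Sfxn1, a serine transporter, by 2.64 and Mpc1 by 1.79. Mpc1 and Mpc2 form the pyruvate carrier, and Mpc2 rose by 0.66. Of 4 tested creatine and adenylate kinase genes, 2 rose (38.4% of all features) and 2 fell (36.9%). Ak1 (2.13), which is cytosolic, and Ckmt1 (1.61), in mitochondria, rose, and Ak3 (-1.17), in mitochondria, was among those that fell. None of the 4 lists had a member that passed in a drug comparison, where 0 features passed at all.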

How the data were processed

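RNA of the 22 germ cell samples was labelled with Cy3 and hybridised to Agilent rat arrays, 1 array per rat and cell type. The deposited scanner files hold background-subtracted intensity values per spot. Per the file headers Feature Extraction 10.7.3.1 made them, while the submitters' processing notes name 11.5.1.1. In the authors' table of values, on a log2 scale, columns matched signals quantile normalized within a cell type and centred per probe (correlation with the own array 0.9988 or more, with any other 0.581 or less, over bright probes). Its exact scale and centring are not stated, its column medians were -0.00975 to 0.00702, and it served only as an alternative for drug comparisons.

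Control spots and outlier spots were left out, the spots of a probe averaged, and each array scaled by subtracting its 75th percentile on the log2 scale. Of 30367 probes 37 had no usable spot on some array, and accessions named 17998 (59.3%) through the RefSeq table. A probe was tested where more than 0.5 of its spots were well above background, with 1 array at most excepted, throughout 1 or more of the groups compared. Group means were fitted to all 22 arrays with limma 3.58.1 in R 4.3.3 (lmFit, eBayes), with p adjusted over all features tested. Exact permutation tests used scipy 1.17.1. The design was checked on simulated data. Alternatives were quantile normalization, normexp (offset 50, on median signals), no filter or a strict one, another probe, slides, left-out arrays and a replicate block.

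Members and lists were chosen with earlier results of these data known. The rule for named genes took the ADP/ATP carriers, the 8 largest rises and falls that passed, X-linked and dim members and, for each drug comparison, the 3 smallest p on each side. Of pathway lists, it took up to 3 passing members with the largest differences. A few genes are not reported here. Other members were named to account for the family, and Tomm20l, Mpc1, Mpc2, Ucp2, Ak3 and others after their values were seen. ± is a limma standard error unless SD is written.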

Additional observations from a re-analysis of the deposited data

Results flagged for a closer look

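In the 29 members that passed between cell types in either treatment, 116 groups of 5 or 6 rats were searched for a single rat whose gap to the nearest other was large against the group's range, and 6 were found. Chance alone flags about 1 in 20 groups. All 6 are round spermatid arrays, and rats 27 and 29 each account for 2.

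Slc25a14 in cyclophosphamide rat 14 stood above its group, at -0.692 with the others from -1.218 to -1.031. Slc25a17 in cyclophosphamide rat 27 stood below, at -2.171 with the others from -1.829 to -1.68. Slc25a17 in saline rat 29 was also low, at -2.211 with the others from -1.704 to -1.493. Slc25a28 in cyclophosphamide rat 27 read 2.154 with the others from 2.689 to 2.926. Slc25a29 in cyclophosphamide rat 16 read -4.247 with the others from -3.667 to -3.452. Slc25a54 in saline rat 29 read -2.852 with the others from -2.297 to -2.029. For Slc25a14, Slc25a17, Slc25a28 and Slc25a54 these rats did not bring the cell types into overlap.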

How the results depend on the processing

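Member counts that passed between cell types were 19 to 28 in saline and 25 to 29 in cyclophosphamide rats over all alternatives, 26 to 28 and 27 to 28 when 1 array was left out, and 0 in every drug comparison. Of 56 passing values of single members (28 in each treatment), 40 kept their direction and call under every alternative and 16 did not. Those 16 belong to Slc25a3, Slc25a16, Slc25a20, Slc25a21, Slc25a23, Slc25a29, Slc25a30, Slc25a33, Slc25a38, Slc25a44, Slc25a46 and Slc25a51. Within slides 1 and 2 the call was lost for 12 and 7 values, where a lone array stood for pachytene spermatocytes.

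The choice of probe turned signs. With the median probe Slc25a44 gave 2.0381 in saline rats, 2.8334 in cyclophosphamide rats and 0.2329 for the drug in round spermatids. Slc25a16 gave -1.4705 in saline rats, Slc25a33 0.8702 in cyclophosphamide rats and 0.0119 for the drug in round spermatids, and Slc25a5 -0.0667 for the drug. The Slc25a4 minus Slc25a5 change gave 0.0871 and 0.1106 with the other Slc25a5 probe, and for the drug in pachytene spermatocytes 0.0056 with quantile normalization, 0.0754 within slide 1 and 0.0843 within slide 3. Leaving out 1 array gave -0.0445 to 0.0543 there, and -0.3676 to -0.2156 between cell types of cyclophosphamide rats. Causes were not tested.

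Small drug estimates changed sign within slides. In pachytene spermatocytes slides 2 and 4 gave -0.3642 and -0.3753 for Slc25a4, -0.2047 and -0.204 for Slc25a5 and -0.3445 and -0.1146 for Slc25a14, and slide 2 gave -0.2236 for Slc25a53. In round spermatids slide 2 gave -0.2544 for Slc25a30 and -0.0766 for Slc25a5, and slide 1 gave 0.0464 for Slc25a4. For the difference of drug effects slide 2 gave 0.1176 for Slc25a4 and 0.1282 for Slc25a5, and slide 1 gave -0.1614 for Slc25a14. Slc25a33 between cell types of cyclophosphamide rats gave 0.0955 within slide 1 and -0.1595 to 0.0696 without 1 array. With 1 array left out, the drug in pachytene spermatocytes ranged from -0.0556 to 0.291 for Slc25a4, -0.0457 to 0.2367 for Slc25a5 -0.0657 to 0.1495 for Slc25a14, 0.1103 to 0.3925 for Slc25a53, -0.4051 to -0.1728 for Slc25a41, and -0.5012 to -0.2423 for Slc25a35. In round spermatids it ranged from -0.2021 to 0.0367 for Slc25a4, -0.0619 to 0.1274 for Slc25a5 and -0.309 to -0.0799 for Slc25a33, and for the difference from -0.2144 to 0.068 for Slc25a5 and -0.0344 to 0.1808 for Slc25a14.

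The labels do not say whether equal numbers in the 2 cell types mark the same rat. Deviations of same-numbered arrays of both cell types correlated at -0.219 to 0.378, and other pairs at -0.448 to 0.425. Same-numbered pairs are few and lie within the range of the others, so these correlations cannot settle whether the arrays are paired. With the replicate block 28 members passed in each cell type comparison and 0 in round spermatids after the drug or for the difference. For the drug in round spermatids the block joined equal numbers of saline and cyclophosphamide rats, which are different animals. That fit therefore says nothing about pairing of the cell types. No block was possible for pachytene spermatocytes after the drug, since those groups share fewer than 2 numbers.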
